A study of Mus musculus with 6 samples.

Results

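The genes described here carry glucose through glycolysis, the pentose phosphate pathway and lactate export, together with Hif1a, a regulator of several of them. They were chosen by symbol: a line of the count table was taken where its gene name equalled 1 of 39 listed symbols. All 39 symbols were found, on 40 of the table's 54532 lines, since Aldoa has a second Ensembl identifier. Expression was measured by RNA-seq in N9 microglia, an immortalized line derived from mouse brain, grown in RPMI medium with serum. The control group held 3 libraries from untreated cells and the LPS group 3 libraries from cells given lipopolysaccharide at 1 µg/ml for 6 h. LPS is a bacterial cell wall component that activates microglia through Toll-like receptor signaling. N9 is a single cell line, and the sources used here do not say whether the 3 libraries of a group came from separate cultures, so the p-values measure only the spread between these libraries, which may be technical.

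Glycolysis splits glucose into pyruvate. Glucose enters through transporters of the Slc2a family, hexokinases trap it as glucose phosphate, and phosphofructokinase commits it to breakdown. The Pfkfb enzymes set the level of an activator of that step. Pyruvate is reduced by lactate dehydrogenase and leaves the cell as lactate through monocarboxylate transporters, or enters mitochondria through pyruvate dehydrogenase, which the Pdk kinases inhibit. The pentose phosphate pathway branches off at glucose phosphate and supplies NADPH and ribose. Macrophages and microglia exposed to LPS are known for a shift towards glycolysis, and the comparison of LPS with control asks how the transcripts of these enzymes stood in N9 cells.

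The libraries held between 16363767 and 17956772 counted reads, and 3 reads corresponded to between 0.161 and 0.19 CPM (library-scaled counts, made comparable here by TMM, which sets the bulk of genes equal between libraries). The listed genes took between 1.89% and 1.97% of the reads of a library, a share that averaged 1.93 ± 0.038% (SD, n = 3) in control and 1.90 ± 0.0058% with LPS, with overlapping groups (2-sided exact permutation test p = 0.3, where 0.1 is the smallest p that 3 against 3 can give). Of 16 markers of microglia and macrophages, 12 averaged at least 10 reads, and the sum of all 16 lay between 38310 and 42132 reads in every library, while Siglech was at 0 and P2ry12, Sall1 and Aif1 were at or below 9 reads. Of the 12 that could be tested in edgeR, 3 rose and 4 fell, beside 18.7% and 15.7% of all tested genes. Their log2 fold changes ran from -0.59 (Fcgr3) to 0.58 (Spi1). Transcripts typical of hepatocytes (12 markers) summed to 4, 271 and 480 reads in control replicates 1, 2 and 3 and to between 5 and 11 reads with LPS. Skeletal muscle transcripts (6 markers) summed to 8, 4 and 79 reads in the control libraries and to between 0 and 5 with LPS.

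Transcripts at the entry of glycolysis rose with LPS, while most of the later steps did not pass the test. Of the 40 lines, 37 had enough reads to be tested by edgeR's quasi-likelihood test, and 10 of these rose and 6 fell at a Benjamini-Hochberg adjusted p under 0.05. Over all 12296 tested genes, 18.7% rose and 15.7% fell, against 27% and 16.2% of these 37. Slc2a3, Ldhb and Pdk4 were too low to test in that fit. Slc2a3 did not pass in DESeq2, and neither Slc2a3 nor Ldhb passed in edgeR with no filter on low counts. The members that rose were Hif1a, Slc2a1, Slc2a6, Hk1, Hk2, Hk3, Pfkp, Pfkfb3, Pfkfb4 and Ldha. Those that fell were Pfkm, Pfkfb2, Aldoc, Eno3, Pdk1 and Tkt. In bulk RNA a change in the share of cells and a change in RNA per cell cannot be told apart. The changes were small: the log2 fold changes of the 37 ran from -0.74 to 0.73. Their median was 0.014, beside a median of 0.0036 over all tested genes. With a log2 fold change beyond 1.5 in either direction required as well, no member passed in edgeR or in DESeq2. In edgeR 2.65% of all tested genes passed both thresholds, and the difference from the members was not tested. Of the 37, 18 had an unadjusted p under 0.05 in edgeR, as did 42.8% of all tested genes.

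Every LPS library lay above every control library for 12 of the 37 members and below for 9, beside 23.7% and 21.5% of all tested genes. When library totals alone were used for scaling, the median of all tested genes moved by -0.098 on the log2 scale, and 7 members rose while 14 fell in place of 10 and 6, beside 12.4% and 27.2% of all tested genes. The falls added there were those of Gpi1, Pfkl, Tpi1, Pkm, Slc16a1, Pgls, Pgd and Rpia. With upper quartile factors the split was 9 and 6, beside 15% and 20.3%. When control replicates 2 and 3, which held the hepatocyte transcripts, were left out, 8 of the 10 rises and 3 of the 6 falls still passed, with control replicate 1 assumed to vary like the LPS libraries. The calls lost were those of Pfkp, Pfkfb3, Pfkfb2, Aldoc and Tkt, each with its direction kept. Eno1 (log2 fold change 0.12, adjusted p = 0.0477) and Pfkfb1 (-0.77, adjusted p = 0.0485) passed in addition, so that 9 members rose and 4 fell in that edgeR fit, beside 13% and 8.89% of the 12940 genes tested in it.

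**Figure D1:**
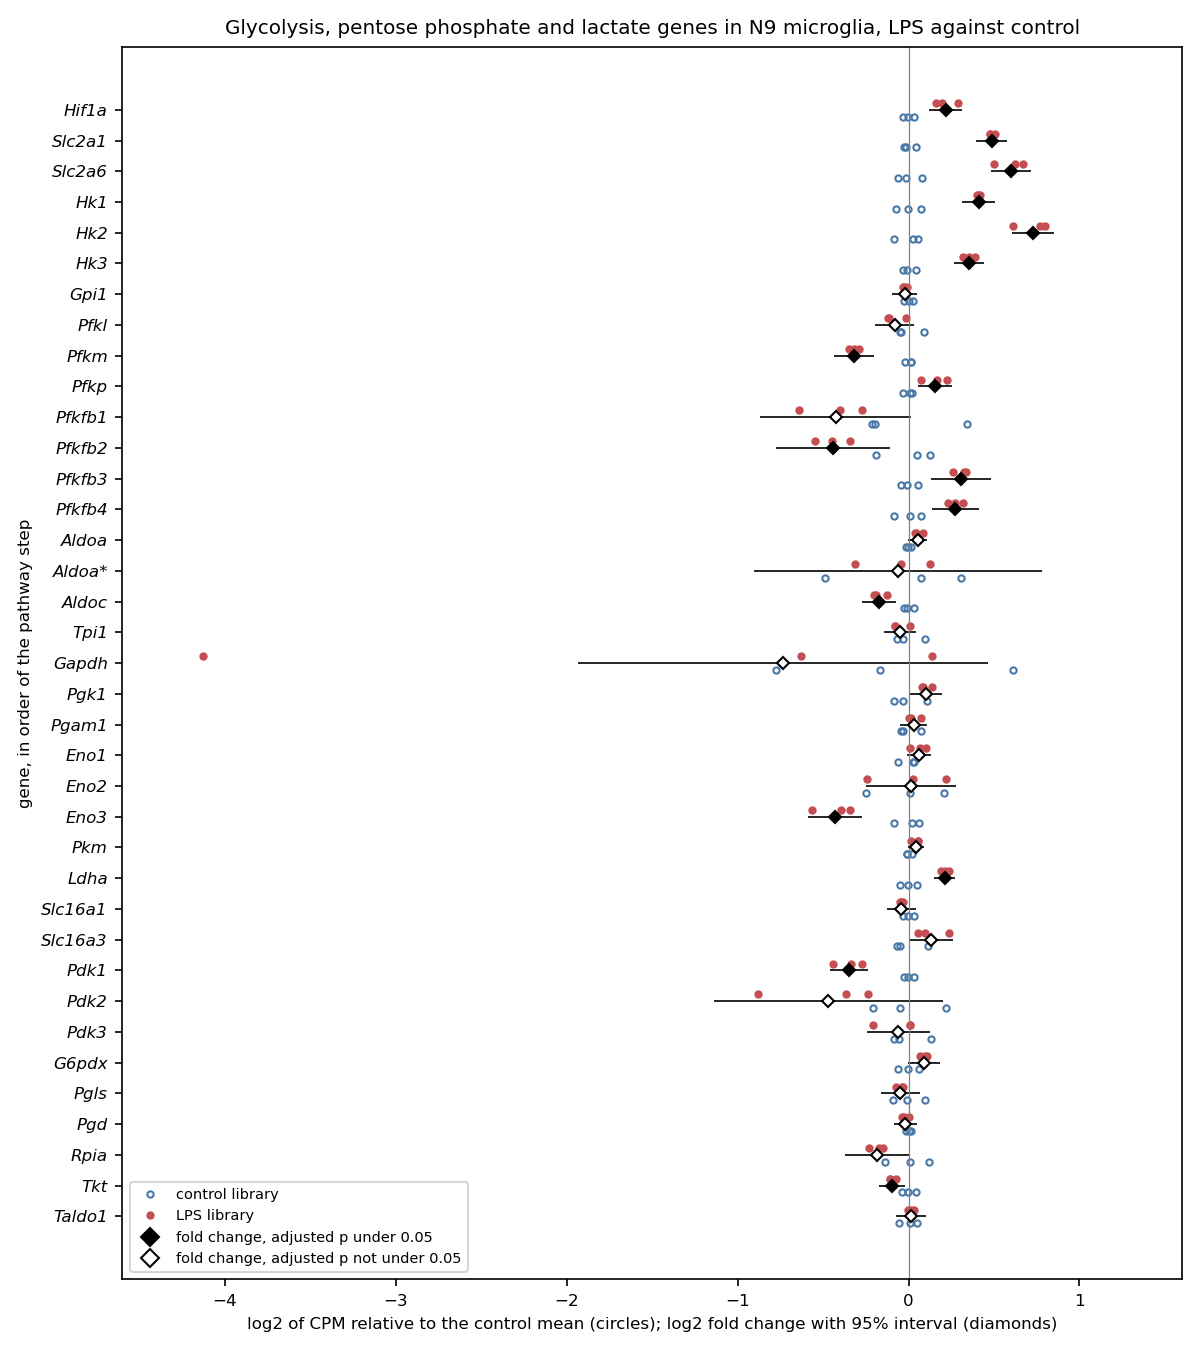
Each tested line in order of the pathway, with circles for the log2 CPM of each library relative to the control mean (open, control; filled, LPS) and a diamond with its 95% interval for the edgeR log2 fold change, filled where the adjusted p is under 0.05. The transporters and hexokinases stand to the right of 0, most later enzymes sit at 0, and the Gapdh libraries spread far more widely than those of any other tested line. Aldoa* is the second Aldoa identifier, with 10 to 16 reads a library.

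Among the listed members, both glucose transporters tested in the main edgeR fit rose. Slc2a1 encodes GLUT1, the main glucose carrier of many proliferating cells (chr4:119108711-119137983, plus strand, mm10). It was measured at 189, 179.9 and 182 CPM in the controls and 255, 261 and 255 CPM with LPS, replicates in order. No LPS library came near the control range, and the rise was 1.40-fold (log2 fold change 0.49 ± 0.0422 SE, adjusted p = 3.43e-07). Slc2a6 encodes GLUT6, a hexose carrier of the same family found on lysosomes (chr2:27021363-27027998, minus strand). Its libraries stood at 99.7, 90.4 and 93.4 CPM in the controls and 145, 151 and 133 CPM with LPS, again without overlap, a 1.51-fold rise (log2 fold change 0.60 ± 0.0553 SE, adjusted p = 6.91e-07). Slc2a3, which encodes the high-affinity carrier GLUT3 of neurons, had only 4, 3 and 13 reads in control and 4, 0 and 0 with LPS. It was too low for the main edgeR fit. It did not pass in DESeq2 (log2 fold change -2.15, adjusted p = 0.275) or in edgeR with no filter on low counts (-2.07, adjusted p = 0.160). Summed per kilobase, the 3 transporters amounted to 81.8 ± 2.83 CPM per kilobase in control and 118 ± 3.45 with LPS (SD, n = 3).

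All 3 listed hexokinase genes rose. Hk2, the inducible hexokinase that binds mitochondria (chr6:82725025-82774454, minus strand), had the largest rise of any member, from 88.04 ± 4.42 to 146 ± 9.89 CPM (mean ± SD, n = 3). Its libraries were at 83.01, 91.3 and 89.8 CPM in the controls and 135, 153 and 150.2 CPM with LPS, a 1.66-fold difference (log2 fold change 0.73 ± 0.057 SE, adjusted p = 1.08e-07). Hk1, the constitutive form (chr10:62268855-62379908, minus strand), stood at 269, 298 and 282 CPM in the controls and 374, 377 and 376 CPM with LPS. The control libraries spread more than the LPS libraries here, but the groups stayed apart (log2 fold change 0.41 ± 0.0443 SE, adjusted p = 3.77e-06). Hk3, the form typical of myeloid cells (chr13:55005985-55021385, minus strand), was measured at 321, 305 and 309 CPM in the controls and 388, 398 and 408 CPM with LPS, with the lowest LPS library above the highest control library (log2 fold change 0.35 ± 0.0406 SE, adjusted p = 6.95e-06). Each of these 5 transporter and hexokinase calls held when any 1 library was left out, under each scaling tried and against a minimum fold of 1.2 (glmTreat), which is the case for 6 of the 16 members called. Against that minimum fold 5 members rose and 1 fell, beside 8.34% and 5.01% of all tested genes. The step as a whole summed to 132 ± 0.494 CPM per kilobase in control and 177 ± 4.42 with LPS.

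The promoters of the members with the largest rises, Hk2 and Slc2a6, are shown with that of Eno3, which had the second largest fall among the members called, so that their hypoxia response cores can be seen. Each window holds 250 bases before to 50 bases after the gene's start in RefSeq on GRCm38.p6 (the same assembly as mm10), 5′ to 3′ along the gene, with capitals for ACGTG or GCGTG on either strand, the core bound by HIF. Pfkfb2, with the largest fall among the members called, has 3 listed starts, so none of its windows is shown. The Hk2 window lies at chr6:82774405-82774704, minus strand, the Slc2a6 window at chr2:27027949-27028248, minus strand and the Eno3 window at chr11:70656926-70657225, plus strand.
Hk2: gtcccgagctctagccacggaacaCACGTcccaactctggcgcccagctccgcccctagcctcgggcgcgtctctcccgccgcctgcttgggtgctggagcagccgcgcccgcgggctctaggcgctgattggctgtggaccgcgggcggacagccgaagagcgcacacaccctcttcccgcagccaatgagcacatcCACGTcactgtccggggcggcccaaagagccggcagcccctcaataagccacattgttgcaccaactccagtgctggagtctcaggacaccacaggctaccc
Slc2a6: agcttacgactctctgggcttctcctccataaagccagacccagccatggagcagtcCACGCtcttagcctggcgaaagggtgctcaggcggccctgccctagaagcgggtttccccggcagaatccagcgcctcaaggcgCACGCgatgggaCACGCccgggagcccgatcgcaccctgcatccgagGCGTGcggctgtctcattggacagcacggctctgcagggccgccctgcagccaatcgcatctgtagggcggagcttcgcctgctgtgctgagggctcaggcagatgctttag
Eno3: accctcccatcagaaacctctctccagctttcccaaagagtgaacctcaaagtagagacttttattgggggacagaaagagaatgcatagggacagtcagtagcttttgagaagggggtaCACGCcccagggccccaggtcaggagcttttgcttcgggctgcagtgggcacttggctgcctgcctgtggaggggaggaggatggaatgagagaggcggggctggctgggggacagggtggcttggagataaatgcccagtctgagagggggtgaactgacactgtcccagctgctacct

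Hk2 carried 2 such cores, both as CACGT on the printed strand, Slc2a6 carried 4 and Eno3 1. The 3 windows of Pfkfb2, not printed, carried 4, 1 and 1, with each strand of a CACGTG counted. The promoter table held 38 of the 39 symbols (Slc2a3 was not among them), and 35 of the 38 had a core in at least 1 window, including the 10 members that rose and the 6 that fell. Of all 27025 genes with a listed promoter, 46.7% had one, and among the 9082 tested genes found there 68.3%. The narrower ACGTG was in 20 of 38 members (52.6%), in 7 of the 10 that rose and in 3 of the 6 that fell, beside 30% of tested genes. CACGTG, the E-box, which holds ACGTG on both strands and so overlaps the core, was in 7 members (18.4%) and 12% of tested genes. The AP-1 motif TGANTCA, searched on both strands, was in 1 member, Aldoa (2.63%), and 6.14% of tested genes, and the NF-kappa B consensus was in 5 members (13.2%) and 12.1%. Genes differ in how many windows they have, and a match in these letters is a description of sequence and not a measured binding site.

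The phosphofructokinase genes moved in both directions. Phosphofructokinase is built from the liver (Pfkl), muscle (Pfkm) and platelet (Pfkp) subunits. Pfkm was at 52.8, 54.1 and 54.1 CPM in the controls and 43.99, 42.1 and 43.05 CPM with LPS, every LPS library below every control library (log2 fold change -0.32 ± 0.0556 SE, adjusted p = 3.93e-04). Pfkp was at 249, 247 and 239.7 CPM in the controls and 258, 286 and 275 CPM with LPS and higher with LPS (log2 fold change 0.16 ± 0.0464 SE, adjusted p = 0.0170), though its lowest LPS library was only just above the highest control library. Its call was lost under upper quartile factors (adjusted p = 0.0872), under library totals (adjusted p = 0.346) and without control replicate 3, LPS replicate 2 or LPS replicate 3 (log2 fold change 0.13, 0.12 and 0.15). Exons of Pfkp overlap Pitrm1 on the other strand over 748 bases, 5.58% of its exon bases, and the use of strand in counting is not given in the sources used here. Pfkl did not pass, at 111, 101 and 101 CPM in the controls and 96.2, 103 and 96.8 CPM with LPS (log2 fold change -0.08 ± 0.0524 SE, adjusted p = 0.262).

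The Pfkfb enzymes make and degrade the activator of phosphofructokinase, and 2 of their 4 genes rose. Pfkfb3, the inducible form with the highest ratio of kinase to phosphatase activity, had 331, 357 and 351 reads in the controls and 388, 383 and 400 reads with LPS. Scaled to library size, these were 19.5 ± 0.692 and 24.1 ± 0.656 CPM, with no overlap (log2 fold change 0.31 ± 0.0811 SE, adjusted p = 0.00859), and the call was just missed under library totals alone (adjusted p = 0.0539). Pfkfb4 had 642, 738 and 743 reads in the controls and 757, 814 and 767 reads with LPS, which scaled to 39.8 ± 2.19 and 48.1 ± 1.47 CPM (log2 fold change 0.27 ± 0.0634 SE, adjusted p = 0.00350). Pfkfb2, the form typical of heart, fell from 6.58 ± 0.738 to 4.84 ± 0.339 CPM, on 123, 120 and 107 reads in the controls and 76, 85 and 74 reads with LPS (log2 fold change -0.44 ± 0.157 SE, adjusted p = 0.0415). That fall did not pass in DESeq2 (adjusted p = 0.134) or in 5 of the 6 fits that left out 1 library, and over those 6 its log2 fold change was between -0.54 and -0.39. Gm29427, at 0 reads in every library, shares 17.4% of the Pfkfb2 exon bases. Pfkfb1, the liver form, had 103, 73 and 76 reads in the controls and 62, 50 and 59 reads with LPS and did not pass (log2 fold change -0.43 ± 0.206 SE, adjusted p = 0.129).

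From aldolase to pyruvate kinase, none of the 11 tested lines rose and 2 fell, beside 18.7% and 15.7% of all tested genes. The 11 include the Gapdh line and the second Aldoa identifier, which held 10 to 16 reads a library. Neither that fell was the most abundant form of its step. Eno3, the muscle form of enolase (chr11:70657202-70662513, plus strand), stood at 47.6, 43.1 and 46.2 CPM in the controls and 34.7, 30.9 and 36.05 CPM with LPS, with the groups well apart (log2 fold change -0.43 ± 0.073 SE, adjusted p = 3.07e-04). The 6 muscle markers summed to 8, 4 and 79 reads in the controls and to between 0 and 5 with LPS, and their part in the Eno3 values was not tested. The log2 fold change of Eno3 without control replicates 2 and 3 was -0.49 (edgeR adjusted p = 0.00405). Aldoc, the brain form of aldolase, was at 112, 115 and 110.4 CPM in the controls and 98.3, 103 and 97.6 CPM with LPS and slightly lower with LPS (log2 fold change -0.17 ± 0.0453 SE, adjusted p = 0.00805).

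The abundant forms of these steps did not pass. Pkm, the pyruvate kinase of most tissues and the member with the highest level per length, was at 4048, 3961 and 3970.3 CPM in the controls and 4038, 4141 and 4148 CPM with LPS (log2 fold change 0.04 ± 0.022 SE, adjusted p = 0.173), and the 95% interval of its log2 fold change was -0.01 to 0.09. Aldoa, the main aldolase, was at 1958, 1947 and 1987 CPM in the controls and 2013, 2081 and 2025 CPM with LPS (log2 fold change 0.05 ± 0.0262 SE, adjusted p = 0.128). With this scaling its LPS libraries all lay above the controls by a few percent without a call. Under library totals alone its log2 fold change was -0.044 (edgeR adjusted p = 0.194). Eno1, the ubiquitous enolase, was at 1831 ± 64.98 CPM in control and 1909 ± 61.4 with LPS (adjusted p = 0.182), and passed when control replicates 2 and 3 were left out. For the other enzymes the log2 fold changes were -0.02 for Gpi1 (glucose phosphate isomerase), -0.05 for Tpi1 (triosephosphate isomerase), 0.10 for Pgk1 (phosphoglycerate kinase), 0.03 for Pgam1 (phosphoglycerate mutase) and 0.01 for Eno2 (the neuronal enolase). The lowest adjusted p of those was 0.0880, for Pgk1, which passed without control replicate 1 (log2 fold change 0.15, adjusted p = 0.00195). In edgeR Pgk1 also passed with a replicate block (0.10, adjusted p = 0.0239) and with no filter on low counts (0.094, adjusted p = 0.0399). Without control replicates 2 and 3 its log2 fold change was -0.0079. Of the 14 members other than Gapdh that averaged at least 1000 reads and did not pass, the 95% intervals of the log2 fold change all lay between -0.19 and 0.26.

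Several of these genes have near-identical copies, so that their reads may be split between lines. Of the distinct 50-base windows of their GENCODE M21 transcripts, 53.9% for Pgk1, 36.2% for Pgam1, 26.0% for Eno1, 25.8% for Pkm and 25.1% for Gapdh also occur in another gene. For Pgk1 and Pgam1 the copies that share at least 100 windows held at most 95 and 189 reads a library. For Eno1 they held between 19168 and 21890 reads, beside between 30075 and 34670 on the Eno1 line itself. Its own line took 60.2 to 61.8% of the sum in every library, and with the copies added its log2 fold change was 0.051 ± 0.0276 (SE, adjusted p = 0.181).

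Gapdh, the glyceraldehyde-phosphate dehydrogenase often used as a reference transcript (chr6:125161715-125166467, minus strand), was the least reproducible of the members that averaged at least 1000 reads. Its line held 5155, 2029 and 3269 reads in the control libraries and 2009, 185 and 3558 reads with LPS. The libraries of a group differed widely, the groups overlapped, and the difference did not pass (log2 fold change -0.74 ± 0.559 SE, adjusted p = 0.349, 95% interval -1.93 to 0.46). The log2 fold change of Gapdh was -0.20 when LPS replicate 2 was left out, -0.31 when it was control replicate 1 and -1.51 when it was LPS replicate 3, and it passed in none of the 6 fits that left out 1 library. In edgeR it passed with a replicate block (log2 fold change -1.08, adjusted p = 0.0273) and with no filter on low counts (-0.74, adjusted p = 4.01e-45). Without that filter the spread of each gene was shrunk fully to that fitted over all genes. The coefficient of variation was 87.0% with LPS, the highest of the 4044 genes with a mean of at least 1000 reads, and 48.0% in control, the third highest, against medians of 3.43% and 3.61%. The other 25 members of that depth varied by 0.526 to 6.81% with LPS and 1.05 to 7.17% in control.

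Most reads that resemble Gapdh were listed elsewhere. The processed pseudogene Gm13394 alone held 20667, 21059 and 21942 reads in control and 20003, 19396 and 18809 with LPS. Together the 89 genes that share at least 100 windows with Gapdh held between 19510 and 22767 reads a library. Gapdh's own line was between 0.91% and 19.4% of the sum of its reads and theirs. That sum was 1433 ± 106 CPM in control and 1363 ± 109 CPM with LPS (SD, n = 3), with overlapping groups, and fitted as 1 line it gave a log2 fold change of -0.073 ± 0.0558 (SE, adjusted p = 0.352). How the counting treated reads that fit several places is not given in the sources used here, and its part in the Gapdh values was not tested.

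**Figure D2:**
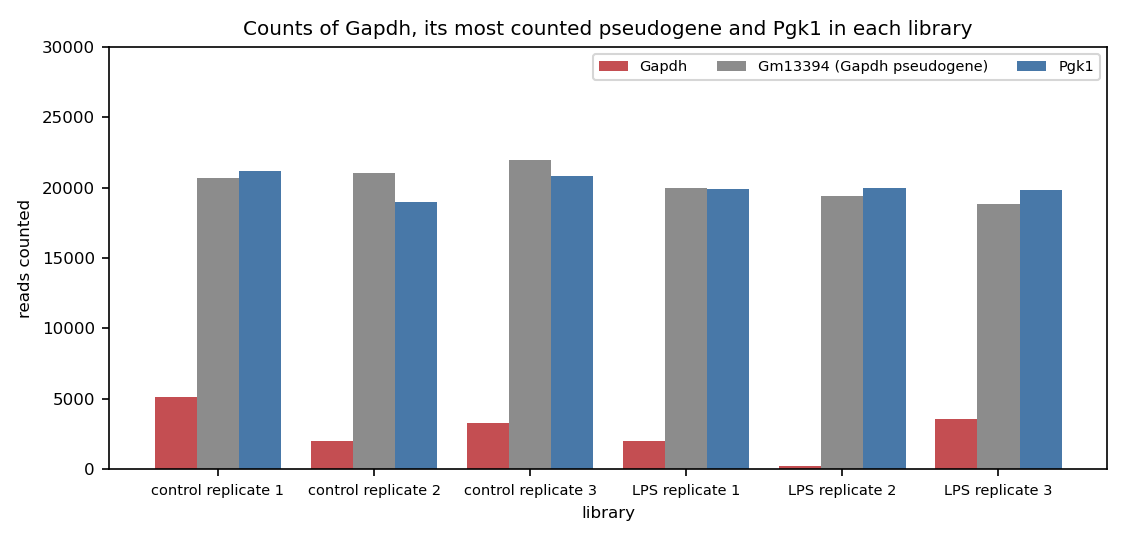
Bars give the reads counted in each of the 6 libraries for Gapdh, for its pseudogene Gm13394 and, for comparison, for Pgk1, the enzyme of the next step. Gm13394 lies between 18809 and 21942 reads and Pgk1 between 19017 and 21186, while Gapdh ranges from 185 reads in LPS replicate 2 to 5155 in control replicate 1.

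At the end of the pathway, Ldha rose and the lactate transporters did not pass. Ldha encodes the lactate dehydrogenase subunit that favours lactate formation (chr7:46841475-46855627, plus strand). It was at 2322, 2168 and 2242 CPM in the controls and 2645, 2557 and 2597 CPM with LPS, and the LPS libraries were tightly grouped above the control libraries, by 1.16-fold (log2 fold change 0.21 ± 0.0289 SE, adjusted p = 4.01e-05). Ldhb, the heart-type subunit, had 1 read in control replicate 1 and 0 elsewhere, where a count of 0 allows up to 3 reads, at most 0.19 CPM. Slc16a1 encodes MCT1 and was at 333, 325 and 318 CPM in the controls and 315, 318 and 315 CPM with LPS (log2 fold change -0.04 ± 0.0393 SE, adjusted p = 0.459), though it fell under library totals alone (log2 fold change -0.14, adjusted p = 0.0101). Slc16a3 encodes MCT4, the lactate exporter of glycolytic cells, and was at 185, 165 and 163 CPM in the controls and 178, 202 and 183 CPM with LPS (log2 fold change 0.13 ± 0.0596 SE, adjusted p = 0.106). Its groups overlapped, and it passed without control replicate 1 (log2 fold change 0.18, adjusted p = 0.0196).

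Pdk1, a kinase that holds back pyruvate dehydrogenase and a known HIF target, fell. Its libraries were at 94.98, 91.4 and 92.8 CPM in the controls and 77.1, 73.7 and 68.5 CPM with LPS, without overlap (log2 fold change -0.35 ± 0.0521 SE, adjusted p = 1.01e-04). Pdk3 was at 30.7, 34.98 and 30.1 CPM in the controls and 32.1, 32.1 and 27.6 CPM with LPS and did not differ beyond its spread (log2 fold change -0.06 ± 0.0851 SE, adjusted p = 0.636). Pdk2 had between 14 and 34 reads a library and did not pass (log2 fold change -0.47 ± 0.312 SE, adjusted p = 0.278), and Pdk4 had 0 reads in all 6. Hif1a itself, the oxygen-regulated subunit of HIF (chr12:73901375-73947530, plus strand), was at 213, 208 and 218 CPM in the controls and 260.2, 238 and 244 CPM with LPS, a 1.16-fold rise (log2 fold change 0.22 ± 0.0461 SE, adjusted p = 0.00196). With library totals alone that rise was 0.12 on the log2 scale and just missed the threshold (adjusted p = 0.0541). HIF is mainly set by protein stability, which these data do not measure.

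Of the 6 pentose phosphate genes among the listed members, all tested, none rose and 1 fell, beside 18.7% and 15.7% of all tested genes. In the oxidative branch, which makes NADPH, none of the 3 listed genes passed. G6pdx, the entry dehydrogenase, was at 264, 275 and 287 CPM in the controls and 297, 295 and 289 CPM with LPS (log2 fold change 0.09 ± 0.0434 SE, adjusted p = 0.130). Pgls (the lactonase) and Pgd (phosphogluconate dehydrogenase) had log2 fold changes of -0.05 and -0.02. Under library totals alone Pgls (-0.15, adjusted p = 0.0408), Pgd (-0.12, adjusted p = 0.00682) and Rpia (-0.28, adjusted p = 0.0220) fell as well. Reads of G6pdx may include some of Ikbkg, a regulator of NF-kappa B, whose exons overlap it on the other strand over 418 bases, 13.6% of its exon bases, and which held between 703 and 857 reads. In the non-oxidative branch Tkt, the transketolase, fell slightly, at 762, 720.3 and 739 CPM in the controls and 687, 703 and 685 CPM with LPS (log2 fold change -0.10 ± 0.0347 SE, adjusted p = 0.0409). Tkt missed the threshold in 5 of the 6 fits that left out 1 library (adjusted p between 0.0590 and 0.112 in those). Rpia, the ribose phosphate isomerase, was at 25.2, 23.4 and 21.1 CPM in the controls and 19.8, 20.98 and 20.6 CPM with LPS, every LPS library lower but without a call (log2 fold change -0.18 ± 0.0893 SE, adjusted p = 0.136), and Taldo1, the transaldolase, had a log2 fold change of 0.01. Per kilobase, the oxidative genes summed to 250.2 ± 6.30 CPM per kilobase in control and 253 ± 3.16 with LPS, and the non-oxidative genes to 249 ± 8.18 CPM per kilobase in control and 244 ± 1.13 with LPS.

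Levels per length (CPM divided by the deposited gene length in kilobases) put the main enzymes of the lower part of glycolysis, Gapdh excepted, far above its entry. In control, Pkm stood at 798 ± 9.60 CPM per kilobase, Ldha at 678 ± 23.3, Aldoa at 675 ± 7.06, Pgam1 at 604 ± 27.8 and Pgk1 at 510.5 ± 36.5 (SD, n = 3), and Ldha and Aldoa did not differ beyond their spread. With LPS, Ldha at 785 ± 13.3 was above Aldoa at 701 ± 12.4 and closer to Pkm at 822 ± 12.3. By contrast Hk3, the most abundant hexokinase, was at 84.6 ± 2.25 in control and Slc2a1 at 52.4 ± 1.35. The Gapdh line stood at 47.7 ± 22.9 in control. Per length the 3 phosphofructokinase subunits lay close together, Pfkl at 15.7 ± 0.886, Pfkm at 16.1 ± 0.224 and Pfkp at 18.3 ± 0.374. Before that division their control means were far apart, at 104.6, 53.7 and 245.3 CPM, on deposited lengths of 6675, 3340 and 13401 bases. For Pfkm, Pfkp, Hk1 and Hk3 that length equals all annotated exon bases, which need not be the length of the transcript expressed. The sum of the 3 subunits was 50.05 ± 0.960 CPM per kilobase in control and 48.1 ± 1.31 with LPS, with overlapping groups, while Pfkm and Pfkp moved in opposite directions. Without division by length the log2 ratio of that sum, LPS over control, was 0.041, where per kilobase it was -0.058.

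**Figure D3:**
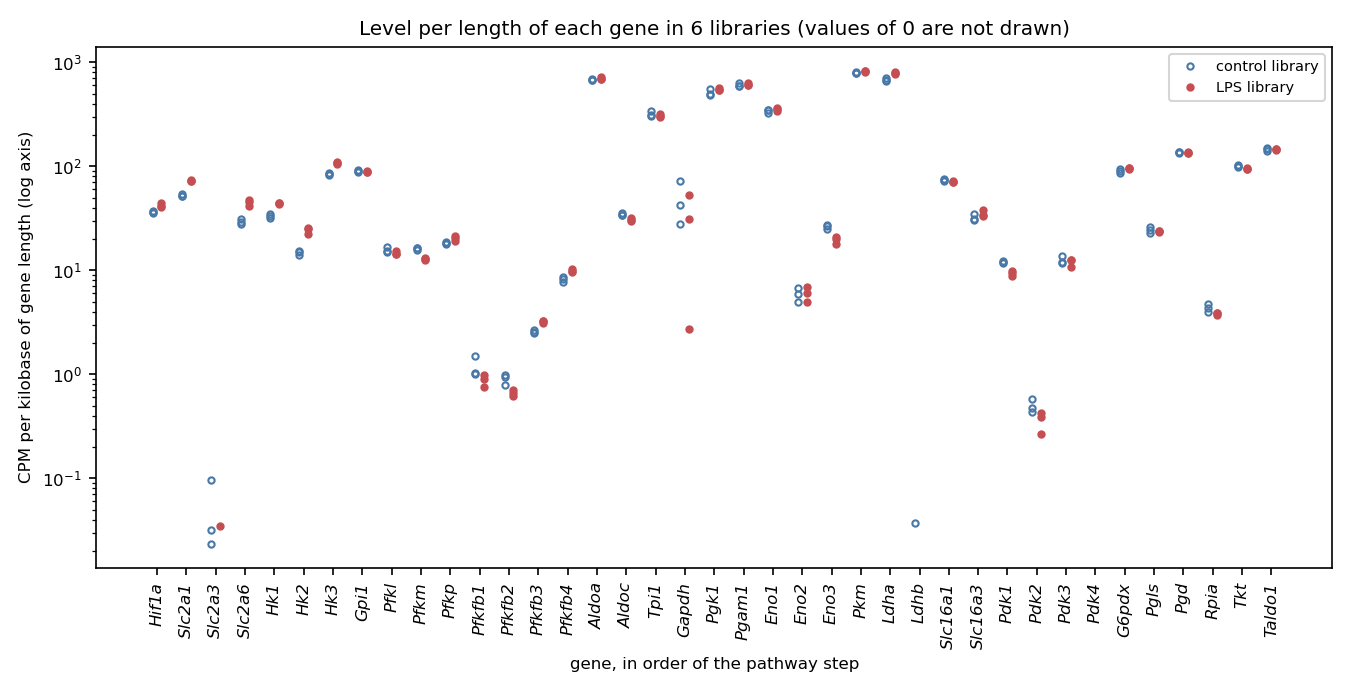
CPM per kilobase on a log axis for each gene in each library (open circles, control; filled, LPS; values of 0 not drawn; Aldoa by its main identifier). Among group means, the main enzymes from aldolase to lactate dehydrogenase other than Gapdh run from 307 (Tpi1, LPS) to 822 (Pkm, LPS), the hexokinases from 14.7 (Hk2, control) to 108 (Hk3, LPS), and Slc2a3 and Ldhb are near the limit of counting.

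The make-up of several steps differed between all LPS and all control libraries, although the exact permutation test used here cannot pass with 3 against 3 libraries. Shares were taken from CPM per kilobase within each step and compared by a 2-sided exact permutation test, in which complete separation of 3 against 3 gives p = 0.1, the smallest possible (0.163 after adjustment over 26 shares). Pfkm made up 30.95, 32.5 and 32.9% in the controls and 28.1, 25.5 and 26.9% with LPS of the phosphofructokinase subunits, and Pfkp went from 36.6 ± 0.378% to 42.4 ± 1.09%, both with separated groups (exact p = 0.1). Hk2 was 10.5, 11.5 and 11.4% in the controls and 13.1, 14.4 and 13.97% with LPS of hexokinase. Hk3 held the largest share per kilobase, 63.8 ± 1.78% in control and 61.2 ± 0.412% with LPS. That share depends on the deposited lengths, 3682 bases for Hk3 and 8532 for Hk1. Without division by length Hk3 and Hk1 were nearer, at means of 311 and 283 CPM in control and 398 and 376 CPM with LPS. Eno3 made up 7.06 ± 0.555% in control and 5.12 ± 0.469% with LPS of enolase, and Pdk1 48.1 ± 2.23% in control and 43.3 ± 0.993% with LPS of the Pdk genes, both also separated. The split between Slc2a1 and Slc2a6 overlapped between groups, with Slc2a1 at 63.99 ± 0.572% in control and 62.2 ± 1.28% with LPS. Taken from reads without division by length, the Pfkm share fell by 2.93 points, where per kilobase it fell by 5.31 points, and the Eno3 share fell by 0.68 points, where per kilobase it fell by 1.93 points, since these genes are short beside their partners.

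**Figure D4:**
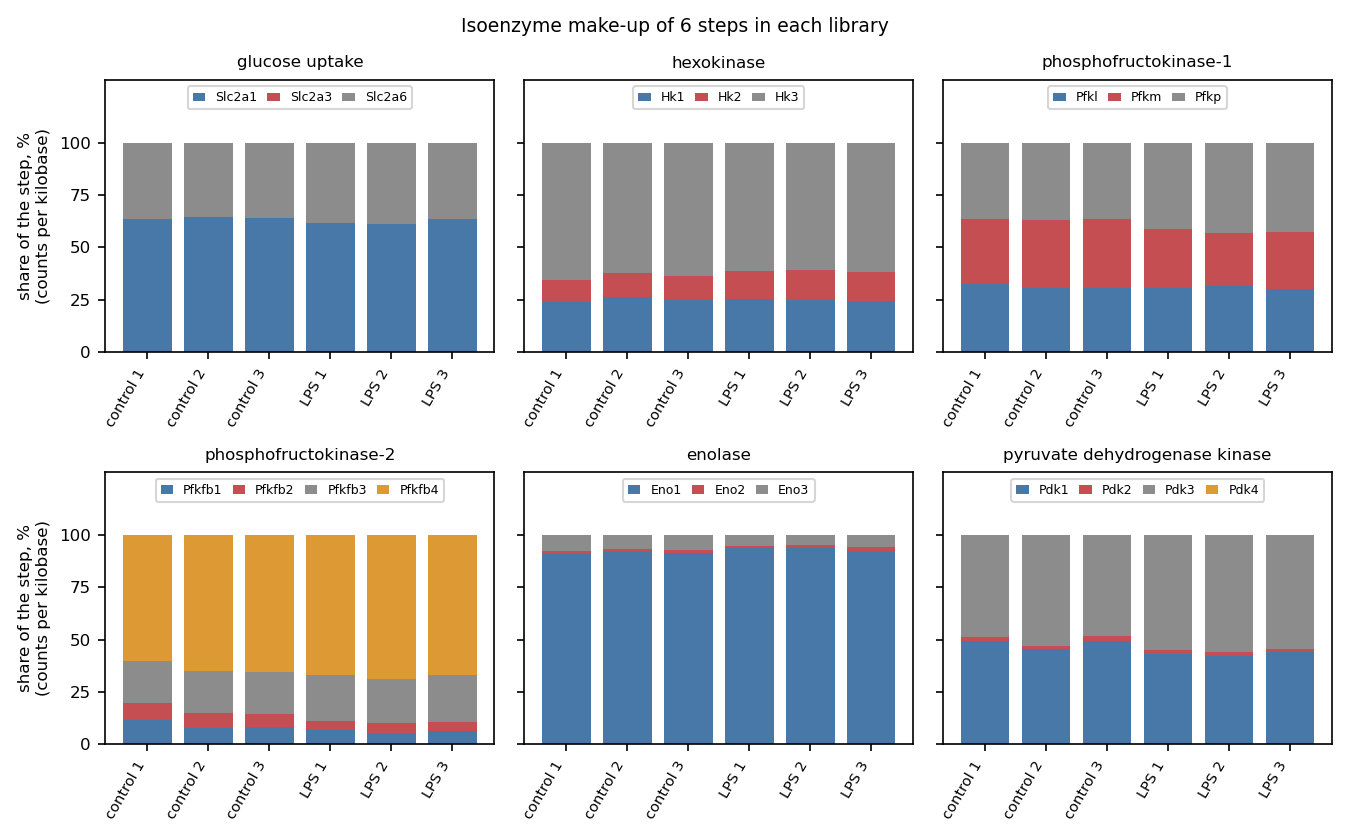
Stacked bars give the share of each gene in the summed CPM per kilobase of 6 steps, 1 bar for each library. Pfkp takes a larger and Pfkm a smaller part of phosphofructokinase with LPS, Hk2 grows within hexokinase, and Pfkfb4 stays the main Pfkfb gene at 60.4 to 69.1%.

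Around these members stand the other genes of carbohydrate handling (other isoenzymes, transporters, glycogen, galactose and gluconeogenesis genes), of which 50 of 73 could be tested. Of these, 6 rose (12%) and 13 fell (26%) in edgeR, beside 18.7% and 15.7% of all tested genes, and the median of their log2 fold changes was -0.060. The largest falls were those of Slc2a8, an intracellular glucose transporter, at 164, 160 and 217 reads in the controls and 93, 85 and 102 reads with LPS (log2 fold change -0.81 ± 0.144 SE, adjusted p = 4.58e-04), and of Slc2a9, a urate and hexose transporter, at 281, 290 and 297 reads in the controls and 179, 158 and 174 reads with LPS (log2 fold change -0.63 ± 0.103 SE, adjusted p = 2.25e-04). Both thus moved against Slc2a1 and Slc2a6. Prps2, which makes the ribose donor of nucleotide synthesis, had a log2 fold change of -0.48 and Pdpr, the regulatory subunit of pyruvate dehydrogenase phosphatase, -0.36. The largest rises were those of Gbe1, the glycogen branching enzyme (0.53), Slc16a6, a monocarboxylate transporter family member (0.41), Pgam5, a mitochondrial phosphatase (0.33), and Pgm3, of hexosamine synthesis (0.23). Under library totals alone 3 of the 50 rose and 23 fell, beside 12.4% and 27.2% of all tested genes. Without control replicates 2 and 3 there were 2 rises and 6 falls, beside 13% and 8.89%, and without LPS replicate 1 there were 3 rises, beside 17%.

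A list of 31 genes around HIF held its other subunits, its regulators such as Vhl and Hif1an, known targets, and the growth and nutrient regulators Myc, Mtor, Mlxip and Mlxipl. Of these, 27 were tested, 11 rose (40.7%) and 3 fell (11.1%) in edgeR, beside the same 18.7% and 15.7%, with a median log2 fold change of 0.084. Myc, Mlxip, Vhl and Arnt2, which are in the list as regulators or subunits and not as targets, are among the 11 that rose. Under library totals alone 8 rose and 7 fell, beside 12.4% and 27.2% of all tested genes. Myc, a transcription factor that also drives glycolytic genes, was the sole gene of either list past both thresholds in edgeR, at 51, 76 and 55 reads in the controls and 440, 445 and 398 reads with LPS (log2 fold change 2.95 ± 0.138 SE, adjusted p = 2.96e-10). Ndrg1, a stress-responsive HIF target, followed at 379, 419 and 474 reads in the controls and 645, 646 and 637 reads with LPS (log2 fold change 0.74 ± 0.0746 SE, adjusted p = 1.90e-06). Pdgfb, a growth factor, had a log2 fold change of 0.66 and Arnt2, a HIF partner subunit, 0.53. Epas1, which encodes the sister alpha subunit of HIF, fell most, at 663, 796 and 904 reads in the controls and 332, 334 and 343 reads with LPS (log2 fold change -1.09 ± 0.0871 SE, adjusted p = 1.42e-07), opposite to Hif1a. Bnip3, a mitophagy receptor, and Mxi1, a Myc antagonist, fell with log2 fold changes of -0.30 and -0.18. Neither passed without LPS replicate 3, which left Epas1 as the sole fall of the list, beside 13.1% of all tested genes. Without LPS replicate 2 there were 5 falls, beside 12.6%, and against a fold of 1.2 there was 1.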

How the data were processed

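RNA-seq of N9 microglia was measured in 6 libraries, 3 control and 3 LPS, grouped by the treatment in the labels. Novogene sequenced and counted for the authors; the submitters' processing notes name featureCounts version 1.5.0-p3 and build mm10. The aligner, the annotation, the use of strand and the treatment of reads with several matches are not given in the sources used here. The authors deposited raw read counts per gene for 54532 lines, whole numbers without normalization, with gene names, positions and gene lengths. A second deposited table holds the authors' own DESeq2 comparison (fold changes and p-values) with 18 columns of values per sample, and none of it was used. Total counts were 16363767 to 17956772 per library, no counts lacked a gene name, and the floor given for a count of 0 covers counting error only, as no molecular identifiers are named and reads can be copies of 1 molecule. No 2 libraries of a group agreed within counting noise (chi-square per gene 3.61 to 7.82), so all 6 were kept. EdgeR 4.0.16 under R 4.3.3 was used for a quasi-likelihood test of LPS against control on all genes that passed filterByExpr, with TMM factors (0.965 to 1.04), a prior count of 0.125 and no block for replicates. P-values were adjusted by Benjamini-Hochberg across all 12296 tested genes, and a gene is said to have risen or fallen at an adjusted p under 0.05. The second threshold, an absolute log2 fold change above 1.5, is that of the study. Standard errors (SE) of log2 fold changes were derived from the F statistic, and 95% intervals, which carry the spread between libraries, use the moderated degrees of freedom. DESeq2 1.42.0, other scalings and filters, a replicate block and fits without each library were tried. Shared windows and overlapping exons came from GENCODE M21, which places 39 of the 40 lines where the deposited table does. Python 3.11.15, scipy 1.17.1 and matplotlib 3.10.9 were used for shares, motifs and figures. The members and the gene lists were chosen with earlier results of these data known. All 39 members are named, and from the 2 further lists the 4 largest changes in each direction among called genes whose groups did not overlap.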

Additional observations from a re-analysis of the deposited data

How the results depend on the processing

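The calls of Slc2a1, Slc2a6, Hk1, Hk2, Hk3 and Eno3 held under every alternative planned, and 11 of the 16 member calls held under all but the test against a fold of 1.2. None of the 16 changed direction. No member passed both thresholds under any alternative. With glmTreat against a fold of 1.2, 5 members rose and 1 fell, 2 and 3 of the other carbohydrate genes, and 7 and 1 of the HIF list, beside 1026 and 616 of all 12296 tested genes. With library totals alone, which moved the median log2 fold change by -0.098, 1520 of all tested genes rose and 3342 fell, in place of 2294 and 1927, and with upper quartile factors 1845 and 2497. Library totals gave 14 falling members, 3 rising and 23 falling other carbohydrate genes and 7 falling HIF genes. Under library totals the log2 fold changes that turned negative were -0.044 for Aldoa, -0.068 for Pgam1, -0.038 for Eno1, -0.083 for Eno2, -0.057 for Pkm (adjusted p = 0.0491), -0.0085 for G6pdx and -0.084 for Taldo1, and under upper quartile factors -0.019 for Pgam1, -0.033 for Eno2, -0.0072 for Pkm and -0.034 for Taldo1. Leaving out each library in turn gave 3 to 7 rising other carbohydrate genes (3 without LPS replicate 1, where 2129 of 12549 tested genes rose) and 1 to 5 falling genes of the HIF list (5 without LPS replicate 2, where 1586 of 12560 fell, and 1 without LPS replicate 3, where 1638 of 12506 fell). The same fits gave -0.26 to 0.11 for the second Aldoa identifier, -1.51 to -0.20 for Gapdh, -0.11 to 0.13 for Eno2, -0.11 to 0.0093 for Pdk3 and -0.020 to 0.028 for Taldo1, none of which passed. Without control replicates 2 and 3, an alternative chosen after seeing the data, 2 of the other carbohydrate genes rose and 6 fell (1681 and 1151 of all 12940 tested genes), Eno1 and Pfkfb1 passed in addition to 11 of the 16 members, and the uncalled changes that turned were 0.0037 for Gpi1, -0.0079 for Pgk1, -0.044 for Pgam1, 0.047 for Pgls and -0.032 for Taldo1. The sum of a gene with its close copies was also chosen after seeing the data. With no filter on low counts the spread of each gene was shrunk fully to that fitted over all genes. In that edgeR fit Gapdh (log2 fold change -0.74, adjusted p = 4.01e-45) and Pgk1 (0.094, adjusted p = 0.0399) passed. The cause of the other shifts was not tested. Control and LPS libraries share replicate numbers, but same-numbered libraries deviated together only weakly (r = 0.135, 0.050 and 0.012 across genes), and control replicate 2 correlated best with LPS replicate 3, so the numbers were not taken as pairs. With a replicate block, 11 members rose and 7 fell, all 16 calls were kept, Gapdh (log2 fold change -1.08, adjusted p = 0.0273) and Pgk1 (0.10, adjusted p = 0.0239) were added, and 2454 of all genes rose and 2020 fell. Depth limits the low members: Slc2a3, Ldhb and Pdk4 were too low for the main edgeR fit. Slc2a3 did not pass in DESeq2 (log2 fold change -2.15, adjusted p = 0.275). In edgeR with no filter on low counts, neither Slc2a3 (-2.07, adjusted p = 0.160) nor Ldhb (-1.84, adjusted p = 0.615) passed. Pfkfb1, Pfkfb2 and Pdk2 rest on 14 to 123 reads a library.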
